A study of Mus musculus with 18 samples.

Results

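The guidance genes described here encode semaphorins and their plexin receptors, ephrins and their Eph receptors, Slits and their Robo receptors, and the Unc5 receptors. Members were picked by a rule on gene symbols that holds no measured value, although earlier results of these data were known. They make up 62 of the 21881 symbols counted in each library: 20 semaphorins, 9 plexins, 5 ephrin-A and 3 ephrin-B ligands, 9 EphA and 5 EphB receptors, 3 Slits, 4 Robos and 4 Unc5 receptors. Of these, 60 had enough reads to be tested. Epha8 (at most 9 counts in any library) and Unc5a (at most 32) did not and are in no count of tested members below. Levels are given as CPM, a gene's counts scaled to a library total of 1000000 with edgeR's TMM factors, which ran from 0.872 to 1.10. A mean of at least 10 CPM in at least 1 cell population was reached by 39 of the 62.

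RNA came from the aorta-gonad-mesonephros (AGM) region of C57BL6 mouse embryos at embryonic day 11, the tissue in which blood stem cells first emerge. All embryos carried BRE-GFP, a transgene whose green fluorescence reports transcription driven by a BMP-responsive element. Cells were sorted into 3 populations: HPSC, enriched for hematopoietic progenitor and stem cells (CD31 positive, Kit positive); MC, enriched for mesenchymal cells (CD31 negative, Kit negative); and EC, enriched for endothelial cells (CD31 positive, Kit negative). Each population was taken from fresh AGM, from AGM kept as an explant under BMP and Hedgehog, and from such explants given cyclopamine, which blocks the Hedgehog transducer Smoothened, and each was split into BRE-GFP positive and BRE-GFP negative cells. That gave 18 combinations with 1 library each, so every test below rests on the spread between matched libraries of different cultures and fractions and not on repeat libraries. The labels do not give the number of embryos behind a library.

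Guidance receptors and ligands were first described in growing axons and also pattern blood vessels. Ephrins stay on the cell surface and signal to Eph receptors on a touching cell, with signals running in both directions; ephrin-A ligands are held by a lipid anchor and ephrin-B ligands span the membrane. Ephrin-B2 (Efnb2) marks arterial endothelium and its receptor EphB4 (Ephb4) marks venous endothelium. Class 3 semaphorins are secreted and mostly act through a neuropilin with a plexin, whereas Sema3e binds Plexin-D1 directly; Slits bind Robo1 and Robo2, and Robo4 is the endothelial member of the Robo family.

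Counts assigned to genes ran from 3041249 in cyclopamine BRE-GFP negative HPSC to 21972063 in cyclopamine BRE-GFP positive MC, and the number of symbols with a count from 10297 to 18816, lowest in that same HPSC library. Cyclopamine negative EC had the next lowest number of symbols, 11006 at 7855180 counts, against 14460 in its positive partner. Reads that HTSeq assigned to no feature made up 19.5 to 49.4%. The sort labels were set beside marker lists. The endothelial list holds Pecam1, which encodes the sorted CD31, so its sums follow in part from the sort and are no independent check. The summed CPM of 10 endothelial markers was 335 to 7377 in HPSC, 67.3 to 205 in MC and 473 to 7583 in EC. The sum of 9 mesenchymal markers was 283 to 928 in HPSC, 2664 to 7709 in MC and 1000 to 6808 in EC, so the EC libraries also held mesenchymal transcripts. MC also carried 9 neural crest and neuron markers, at 235 to 1179 CPM against 21.5 to 82.1 in HPSC and 37.3 to 201 in EC. The sum of 6 erythroid markers was uneven, at 496 to 27863 CPM in MC, 1834 to 15040 in HPSC and 19.4 to 3397 in EC.

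Per kilobase of exon, the mean level over the 18 libraries was highest for 2 ephrin-A ligands, Efna1 at 134 and Efna5 at 78.8 CPM per kb. Efna1, the main ligand of EphA2, averaged 175 CPM per kb in HPSC, 30.8 in MC and 195 in EC, whereas Efna5 averaged 34.1, 138 and 64.3 CPM per kb in the same populations. After these came the netrin receptor Unc5b (21.5 CPM per kb), Ephb4 (19.1), Plxnd1 (19), Robo4 (16.1), Efnb2 (15.3) and Plxnb2, a receptor of class 4 semaphorins (13.7). Among EphA receptors Epha7 (12.8), Epha4 (9.29) and Epha3 (5.02) led, and among semaphorins Sema4d (8.48), Sema6a (6.22) and Sema6d (5.66). The Slits were lower per length, with Slit3 at 3.55, Slit2 at 1.88 and Slit1 at 0.116 CPM per kb. The remaining leaders of their families were Efna4 (6.54), Efnb3 (5.89), Efnb1 (3.12), Ephb1 (2.97), Ephb3 (2.57), Plxna1 (5.01), Robo1 (3.72), Robo2 (2.86), Unc5c (3.60) and Unc5d (0.537), all in CPM per kb. The SD over the 18 libraries was 153 CPM per kb for Efna1, 57.2 for Efna5 and 23.2 for Unc5b. These SDs mix populations, cultures and fractions, and differences between neighbours in this order were not tested.

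**Figure D1:**
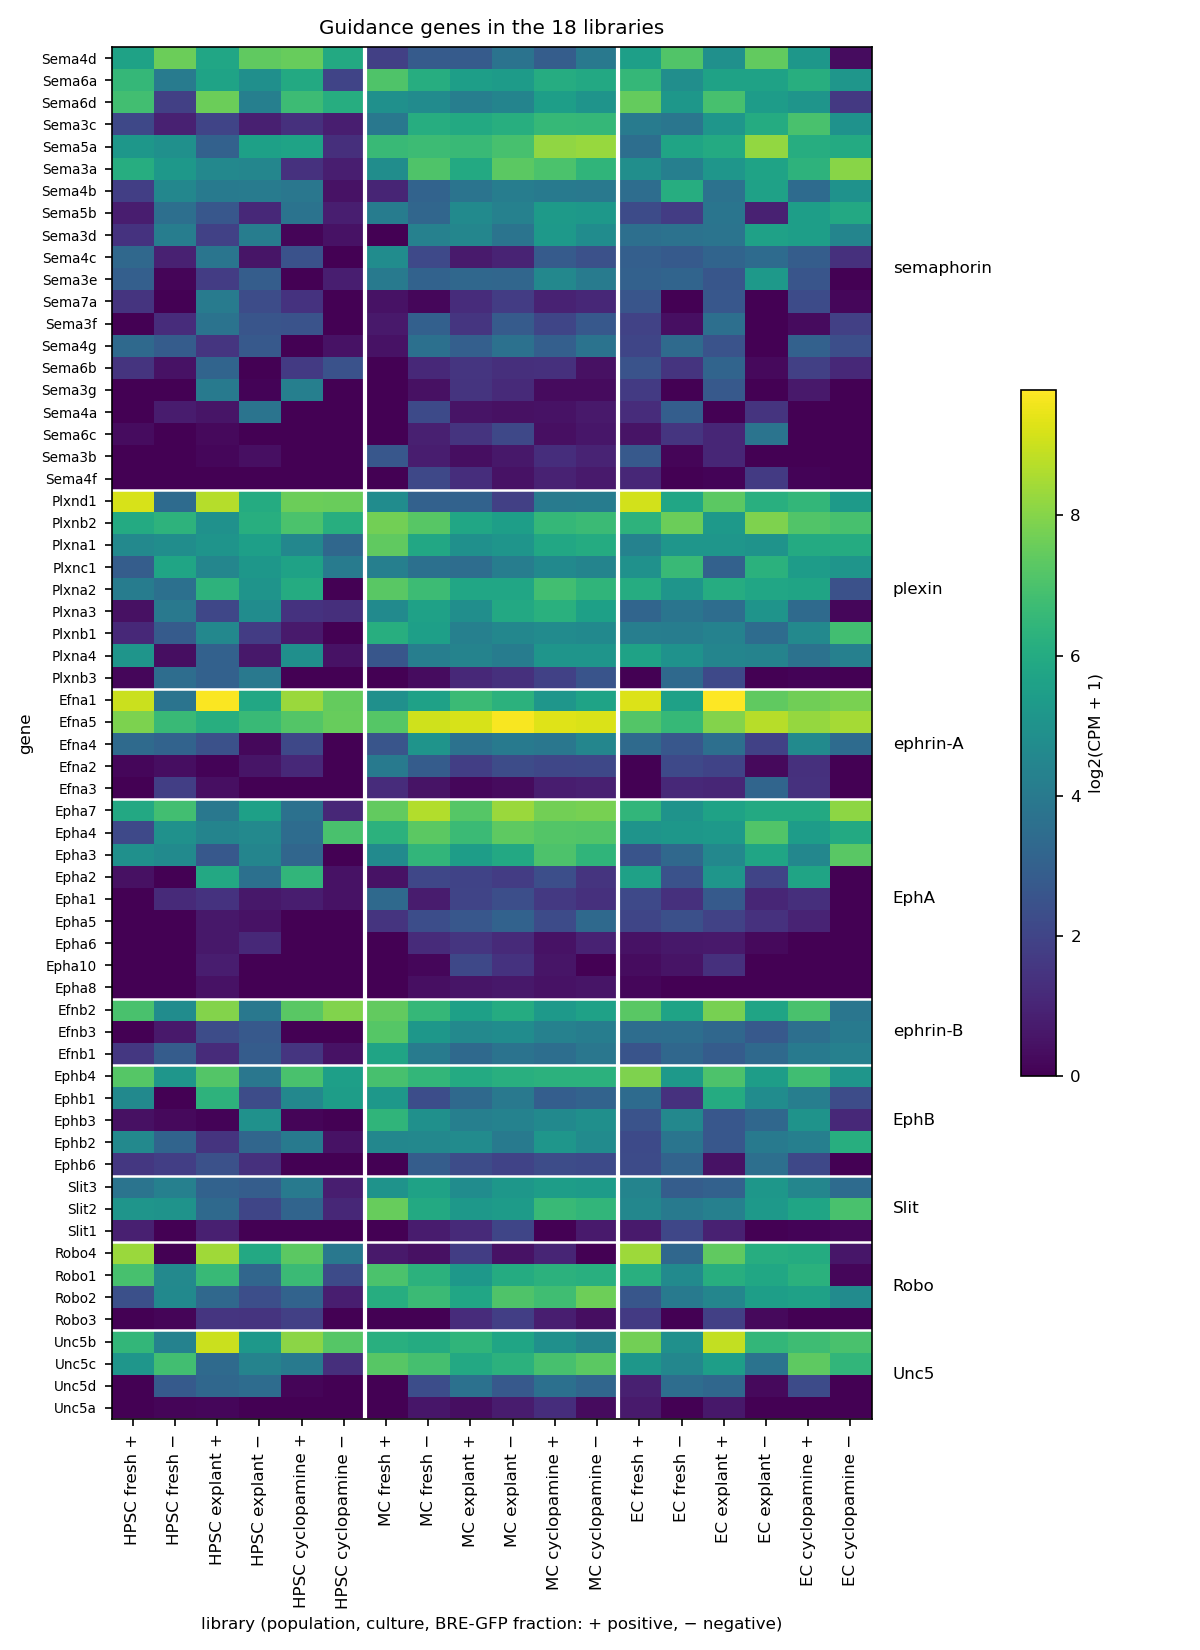
Level of each of the 62 guidance genes (rows, grouped by family) in each of the 18 libraries (columns), as log2(CPM + 1). Robo4 is dark in all 6 MC columns and Plxnd1 is dimmer there than in most HPSC and EC columns, while Efna5, Epha4, Epha7 and Robo2 are brighter in MC than in most HPSC columns.

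The arterial and venous members, Efnb2 and Ephb4, were both read in all 18 libraries. Efnb2 lies on mouse chromosome 8 (chr8:8617434-8661242, minus strand, whole gene) and Ephb4 on chromosome 5 (chr5:137350109-137378669, plus strand) in the GENCODE M21 annotation of GRCm38. Because the libraries were split by a reporter of BMP-driven transcription, the 250 bases before each start site are shown, from RefSeq on GRCm38.p6, with capitals marking GGCGCC, a GC-rich element that BMP-activated SMAD proteins can bind and that reads the same on both strands. The coordinates are chr5:137349859-137350108 on the plus strand for Ephb4 and chr8:8661243-8661492 on the minus strand for Efnb2, and both sequences run 5′ to 3′ toward the gene.
Ephb4: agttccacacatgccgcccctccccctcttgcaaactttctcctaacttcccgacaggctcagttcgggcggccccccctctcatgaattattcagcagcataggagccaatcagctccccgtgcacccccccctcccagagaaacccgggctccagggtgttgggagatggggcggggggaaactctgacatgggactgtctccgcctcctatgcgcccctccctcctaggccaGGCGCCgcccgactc
Efnb2: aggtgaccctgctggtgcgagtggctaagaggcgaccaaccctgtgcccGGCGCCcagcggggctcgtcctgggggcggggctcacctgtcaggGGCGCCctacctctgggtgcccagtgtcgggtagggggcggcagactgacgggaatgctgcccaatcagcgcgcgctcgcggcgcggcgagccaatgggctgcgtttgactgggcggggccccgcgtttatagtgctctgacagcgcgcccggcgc
Ephb4 held 1 GGCGCC, whose first base lies at position -15 from the start site, and Efnb2 held 2, at -201 and -156. In windows of 250 bases before to 50 after a start site, 15 of the 70 promoters listed for 54 of the members held GGCGCC (21.4%), against 11.9% of all 32851 promoters in the table. The other motifs searched on both strands were CAGACA, a SMAD binding element (24.3% of the members' promoters, 21.0% of all), TGGGAA, bound by RBPJ (21.4% and 25.6%), and CCGGAAG, bound by ETS factors (2.86% and 8.86%); none of these 3 letter strings stood in the stretches printed. A match describes these letters and shows no binding.

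Efnb2 had 126 against 26.4 CPM in BRE-GFP positive and negative fresh HPSC, 247 against 14 in explant HPSC and 154 against 244 in cyclopamine HPSC. In EC the positive and negative values were 156 against 50.2 CPM when fresh, 218 against 51.5 in explants and 125 against 13.5 with cyclopamine. In MC they were 171 against 90.5, 46.7 against 64.4 and 36.9 against 47.1 CPM in the same order of cultures. The positive library was thus above the negative one in 5 of the 6 HPSC and EC pairs, the exception being cyclopamine HPSC, whose negative library is the shallowest of all, and in 1 of 3 MC pairs.

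Ephb4 had 148 against 34.4 CPM in BRE-GFP positive and negative fresh HPSC, 142 against 13.9 in explant HPSC and 124 against 45.3 in cyclopamine HPSC. EC gave 236 against 38.3, 130.4 against 43.2 and 109 against 33.9 CPM in fresh, explant and cyclopamine cells, and MC gave 123 against 89.1, 62.1 against 71 and 78.1 against 76.3 CPM. All 6 positive HPSC and EC libraries lay above all 6 negative ones, and the MC libraries, at 62.1 to 123 CPM in both fractions, lay above all of these negative libraries.

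The test over all 9 pairs gave a log2 difference, BRE-GFP positive over negative, of 1.40 (SE 0.51, edgeR adjusted p = 0.783) for Efnb2 and 1.46 (SE 0.39, edgeR adjusted p = 0.486) for Ephb4, so neither passed. Fitted by population, the log2 difference of Efnb2 was 1.98 (0.629) in HPSC, 0.03 (1) in MC and 2.30 (0.993) in EC, with edgeR adjusted p in parentheses. The same values of Ephb4 were 2.30 (0.248), 0.10 (1) and 1.97 (0.864). DESeq2, run as an alternative, called Ephb4 over all pairs (adjusted p = 0.00859), in HPSC (0.000171) and in EC (0.0045), and called Efnb2 in none. Between populations neither gene passed the test: HPSC over MC gave log2 differences of 0.51 (0.717) for Efnb2 and -0.44 (0.583) for Ephb4, HPSC over EC 0.37 (0.935) and -0.22 (0.936), and MC over EC -0.14 (0.976) and 0.22 (0.93). Efnb2 averaged 135 ± 101 CPM in HPSC, 76.1 ± 50.1 CPM in MC and 102 ± 77.3 CPM in EC, and Ephb4 84.6 ± 59.9 CPM, 83.3 ± 21.6 CPM and 98.6 ± 78.7 CPM (mean ± SD, n = 6 each). The ratio of Efnb2 to Ephb4 CPM within a library ran from 0.398 in cyclopamine negative EC to 5.40 in cyclopamine negative HPSC.

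**Figure D2:**
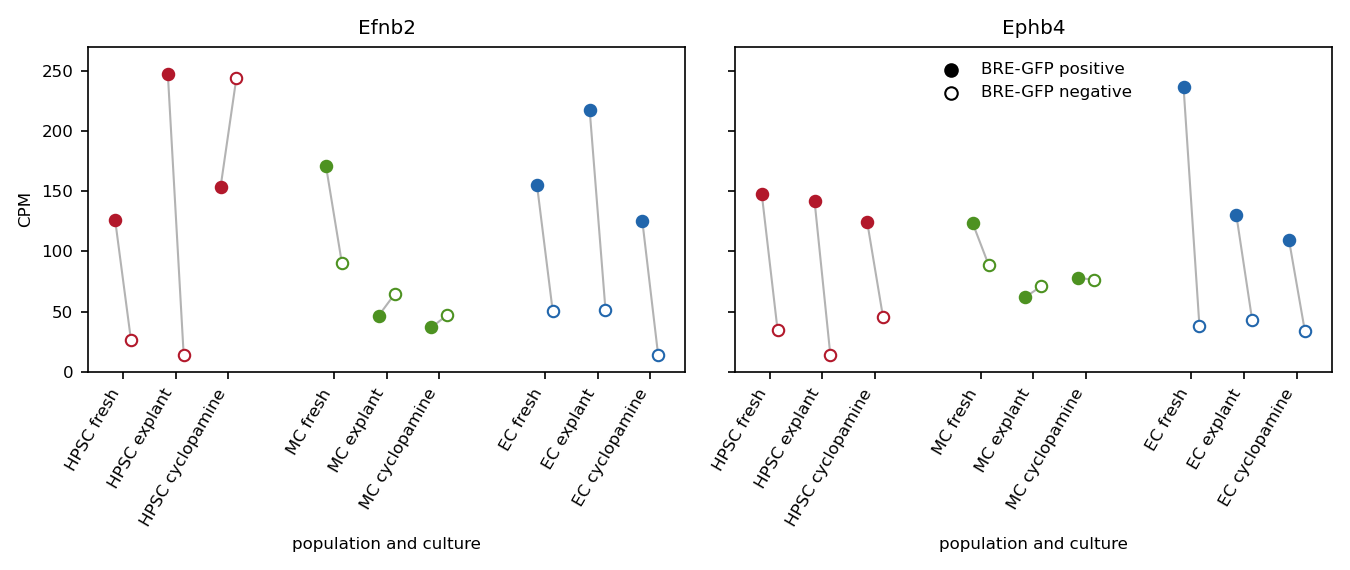
CPM of Efnb2 and Ephb4 in each library, 1 point per library, with a line joining the BRE-GFP positive (filled) and negative (open) cells of the same population and culture. Ephb4 positive libraries of HPSC and EC sit between 109 and 236 CPM and negative ones between 13.9 and 45.3 CPM, and Efnb2 in cyclopamine HPSC is the 1 HPSC or EC pair that runs the other way.

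HPSC differed from MC in 15 of the 60 tested guidance genes, 3 of them higher and 12 lower in HPSC. Among all 16231 tested genes 9.95% passed in this comparison, 4.10% higher and 5.85% lower, so the members' share was above the background in the lower direction and near it in the higher one. The median log2 difference, HPSC over MC, was -1.95 over the members and -0.38 over all genes. At an unadjusted p under 0.05 there were 29 members, against 25.1% of all genes. DESeq2 called 25 members, where it called 22.1% of all genes, and limma-voom 27, where it called 17.7%. Since each library is RNA from a sorted pool, fewer cells of a type and less RNA per cell cannot be told apart here.

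The 3 members higher in HPSC were 2 receptors of the vessel wall and 1 semaphorin of blood cells. Robo4, which stabilizes endothelium, ran from 0 to 338 CPM (median 109) in HPSC, from 0 to 2.43 CPM (median 0.504) in MC and from 0.520 to 330.2 CPM (median 66) in EC. The log2 difference, HPSC over MC, was 7.05 (SE 1.12, edgeR adjusted p = 0.000664). Its lowest HPSC library, fresh negative, had no Robo4 count and overlapped the MC range, and the other 5 HPSC libraries lay above all MC libraries. Plxnd1, the endothelial receptor of Sema3e, ran from 9.78 to 593 CPM (median 190.4) in HPSC, from 2.65 to 26 CPM (median 11.6) in MC and from 39 to 558 CPM (median 79.8) in EC, with a log2 difference, HPSC over MC, of 3.85 (SE 0.59, edgeR adjusted p = 0.000472). It was above MC in all 6 matched pairs, and again fresh negative HPSC alone fell within the MC range.

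Sema4d, a membrane semaphorin known from lymphocytes and platelets that binds Plexin-B1, ran from 49.3 to 189.9 CPM (median 114) in HPSC, from 2.60 to 14.6 CPM (median 6.26) in MC and from 0.260 to 173 CPM (median 40) in EC. The log2 difference, HPSC over MC, was 3.66 (SE 0.82, edgeR adjusted p = 0.00968), and the HPSC and MC ranges did not overlap. The summed CPM of 6 macrophage markers moved with the populations as well, at 229 to 3292 in HPSC, 35.2 to 108 in MC and 563 to 3869.7 in EC. The sum of 6 megakaryocyte markers was 54.1 to 509 CPM in HPSC, 17.3 to 40.3 in MC and 736 to 3858 in EC, and that of 8 hematopoietic progenitor markers 1009 to 2001, 61.8 to 212 and 279 to 691 CPM. Beside Robo4 and Plxnd1 stand the endothelial marker sums given above, which did not overlap between HPSC and MC. This separation leans on the sorted gene Pecam1. Fresh negative HPSC had the lowest HPSC sum, 335 CPM, of which Pecam1 gave 212 CPM, and the highest MC sum was 205 CPM. By edgeR 9 of the 10 endothelial, 6 of 6 macrophage, 4 of 6 megakaryocyte and 7 of 8 hematopoietic markers were higher in HPSC than in MC. Pecam1 and Kit, on which the cells were sorted, are among these endothelial and hematopoietic markers. The part of these cell types in these differences was not tested.

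Among the 12 members lower in HPSC than in MC were 6 ligands. Sema3c, a secreted semaphorin needed for the cardiac outflow tract, ran from 0.754 to 3.35 CPM (median 1.21) in HPSC, from 14.2 to 93 CPM (median 68.6) in MC and from 13.2 to 124 CPM (median 32.7) in EC; the log2 difference, HPSC over MC, was -5.18 (SE 0.75, edgeR adjusted p = 0.000301). All 6 HPSC libraries lay below every MC and every EC library. Slit2, a secreted ligand of Robo1 and Robo2, averaged 14.4 ± 14.4 CPM in HPSC, 84 ± 54 CPM in MC and 45.2 ± 41.7 CPM in EC (SD, n = 6 each), a log2 difference, HPSC over MC, of -2.56 (SE 0.74, edgeR adjusted p = 0.0359). Sema5a, a membrane semaphorin with thrombospondin repeats, averaged 28.3 ± 20.1 CPM, 169 ± 98.3 CPM and 91.2 ± 101 CPM in the same populations, with -2.70 (SE 0.71, edgeR adjusted p = 0.0232). HPSC and MC did not overlap for either gene.

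Efna5, an ephrin-A that directs axon maps, averaged 138 ± 60.8 CPM in HPSC, 556 ± 224 CPM in MC and 259 ± 125 CPM in EC, a log2 difference, HPSC over MC, of -1.96 (SE 0.42, edgeR adjusted p = 0.00709). Per kilobase it had the highest mean in MC of the 12 lower members, and it was below MC in 5 of 6 matched pairs, with fresh positive cells the exception at 231 CPM in HPSC against 145 in MC. Efnb3, the ephrin-B of the spinal cord midline, averaged 1.68 ± 2.47 CPM in HPSC, 44.2 ± 50.2 CPM in MC and 10.3 ± 3.25 CPM in EC, a log2 difference, HPSC over MC, of -5.13 (SE 1.37, edgeR adjusted p = 0.0252), with no overlap between HPSC and MC. Sema4f, a membrane semaphorin, had no count in any HPSC library and 113 counts over the 6 MC libraries. Against a floor of 3 counts over the 6 HPSC libraries together it was at least 25.8-fold lower in HPSC (edgeR adjusted p = 0.0457). This bound covers counting error only, and the MC levels of Sema4f were 0 to 3.39 CPM. Sema4f passed the low-count filter only with its MC libraries, so the filter favoured a difference in this direction.

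The other 6 were receptors. Robo2, which places the ureteric bud in the developing kidney, ran from 0.754 to 24.1 CPM (median 5.94) in HPSC, from 54.8 to 195 CPM (median 106) in MC and from 5.22 to 47.9 CPM (median 23.5) in EC, a log2 difference, HPSC over MC, of -3.87 (SE 0.69, edgeR adjusted p = 0.00188). Epha7, a receptor of ephrin-A ligands, ran from 1.13 to 112 CPM (median 30.3) in HPSC, from 147 to 401 CPM (median 214) in MC and from 32 to 279 CPM (median 60.8) in EC, with -2.81 (SE 0.71, edgeR adjusted p = 0.0191). Neither overlapped between HPSC and MC. Epha4, which binds ephrins of both classes, averaged 35.2 ± 44.4 CPM in HPSC, 131 ± 34.4 CPM in MC and 58.2 ± 41.9 CPM in EC, with a log2 difference, HPSC over MC, of -2.52 (SE 0.54, edgeR adjusted p = 0.00718), and was lower in all 6 matched pairs.

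The last 3 receptors were at low levels in HPSC. Epha5, a receptor of ephrin-A ligands in the brain, averaged 0.155 ± 0.244 CPM in HPSC, 5.24 ± 2.68 CPM in MC and 2.14 ± 1.56 CPM in EC, with a log2 difference, HPSC over MC, of -5.63 (SE 1.54, edgeR adjusted p = 0.0284). Ephb3, a receptor of ephrin-B ligands, averaged 5.15 ± 12.3 CPM, 33.7 ± 24.7 CPM and 12.3 ± 11.9 CPM, with -6.60 (SE 1.71, edgeR adjusted p = 0.0218). Nearly all of its HPSC signal came from explant negative cells, at 30.2 CPM, above the 19.5 CPM of the matched MC library. The fitted Ephb3 difference is much larger than that between the HPSC and MC means. Plxna3, a plexin of the neuropilin complexes, averaged 7.85 ± 10.2 CPM, 46.3 ± 18.2 CPM and 12.2 ± 10.7 CPM, with -3.61 (SE 0.94, edgeR adjusted p = 0.0226). Epha5 did not overlap between HPSC and MC, and the other 2 did.

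Members lower in HPSC than in MC with no overlap between the libraries numbered 11 of 60, against 4.85% of all tested genes: Efna2, Efnb1, Efnb3, Epha5, Epha7, Robo2, Sema3c, Sema3e, Sema5a, Slit2 and Slit3. Of these, Efna2 (edgeR adjusted p = 0.0807), Efnb1 (0.0675), Sema3e (0.145) and Slit3 (0.0628) missed the threshold. By family, 4 of 20 semaphorins, 2 of 9 plexins, 1 of 5 ephrin-A, 1 of 3 ephrin-B, 3 of 8 tested EphA, 1 of 5 EphB, 1 of 3 Slits, 2 of 4 Robos and 0 of 3 tested Unc5 genes passed in either direction. The sums of the 9 mesenchymal and of the 9 neural crest and neuron markers given above were lower in every HPSC library than in every MC library, and all 18 of these markers passed the test; their part in the 12 lower members was not tested.

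The 15 calls did not rest equally on all libraries. Efna5, Epha4, Plxnd1, Robo2, Robo4, Sema3c and Sema4d passed in all 18 fits that each left out 1 library, Sema4f in 4 of them and Slit2 in 8. Without cyclopamine positive HPSC, 7 members passed instead of 15. With the no-feature share of each library as a covariate, 4 passed: Epha4, Plxnd1, Robo4 and Sema3c. The shares of all genes called in these fits are not given here. Whether the losses are particular to the members cannot be read from these counts.

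**Figure D3:**
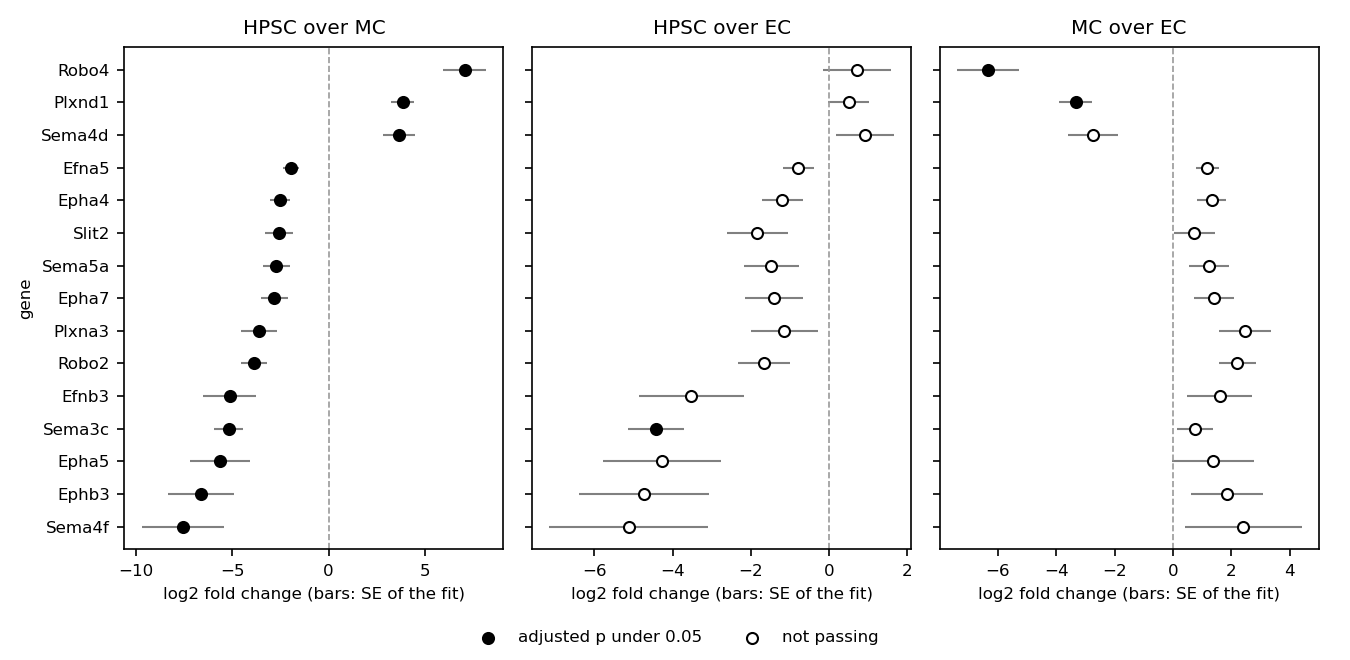
Log2 fold change of the 15 members called in any population comparison, from edgeR, for HPSC over MC, HPSC over EC and MC over EC. Bars are 1 SE, computed as the absolute log2 fold change over the square root of the F statistic. All 15 are filled (adjusted p under 0.05) in the first panel, Sema3c alone in the second, and Robo4 and Plxnd1 in the third; the fitted value of Sema4f rests on HPSC libraries without a count.

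HPSC and EC, the 2 CD31 positive populations, differed in 1 guidance gene. Sema3c was lower in HPSC, with a log2 difference, HPSC over EC, of -4.42 (SE 0.73, edgeR adjusted p = 0.0291); its ranges, given above, did not overlap. Among all tested genes 0.320% passed in this comparison, 0.283% were lower in HPSC by that test and 0.425% were lower in HPSC with no overlap. At an unadjusted p under 0.05 there were 10 members, against 9.32% of all genes; DESeq2 called 6 (4.90% of all genes) and limma-voom 2 (1.40%). The median log2 difference was -1.02 over the members and -0.17 over all genes. The Sema3c call was lost in 8 of the 18 fits that left out 1 library and with the no-feature share as a covariate. The mesenchymal marker sum was lower in every HPSC library than in every EC library, and its part in the Sema3c difference was not tested.

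MC differed from EC in 2 members, both lower in MC, against 2.54% of all tested genes in either direction and 2.29% lower. Plxnd1 gave a log2 difference, MC over EC, of -3.34 (SE 0.57, edgeR adjusted p = 0.00221), and its ranges did not overlap (2.30% of all genes were lower in MC with no overlap). Robo4 gave -6.34 (SE 1.07, edgeR adjusted p = 0.00192); it was lower in MC in all 6 matched pairs, and only cyclopamine negative EC, at 0.520 CPM, fell within the MC range. Both calls stood in all 18 fits that left out 1 library. Robo2 and Efnb3 were above EC in every MC library (1.27% of all genes were), yet missed the threshold, with log2 differences, MC over EC, of 2.21 (SE 0.63, edgeR adjusted p = 0.0877) and 1.60 (SE 1.12, edgeR adjusted p = 0.683). At an unadjusted p under 0.05 there were 8 members, against 11.4% of all genes; DESeq2 called 6 (7.62% of all genes) and limma-voom 8 (4.81%). The endothelial marker sums of MC lay below those of every EC library, and their part in these 2 differences was not tested.

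Partners of the guidance genes were examined as lists. Of 15 tested partners of Slit, Robo and Unc5 proteins, 5 were lower in HPSC than in MC and 0 higher, where 5.85% of all genes were lower and 4.10% higher. They were the Unc5 ligands Flrt1 (log2 difference, HPSC over MC, -4.88), Flrt2 (-2.92) and Flrt3 (-1.82), the netrin and RGM receptor Neo1 (-2.71) and the Slit-binding proteoglycan Gpc1 (-2.99), with edgeR adjusted p between 0.00143 and 0.00796. Flrt3 averaged 108 ± 53.1 CPM in HPSC and 362 ± 97.4 CPM in MC. Of 23 tested coreceptors and transducers of semaphorins, 2 were lower in HPSC than in MC, a share near the 5.85% of all genes. They were the collapsin response mediator Dpysl3 (-2.51, edgeR adjusted p = 0.000638) and the adhesion coreceptor L1cam (-6.33, 0.0243).

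Of 14 transducers of Eph and ephrin signals, 1 was higher and 2 were lower in HPSC than in MC, against 9.95% of all genes in either direction. The higher one was Adam10, a protease that cuts ephrin-A ligands, at 458 ± 202 CPM in HPSC and 174 ± 41.7 CPM in MC (log2 difference 1.32, edgeR adjusted p = 0.00966). The lower ones were Ngef, an effector that Epha4 activates, and the ubiquitin ligase Pdzrn3. Against EC, 1 of these 3 lists held a call: Dpysl3 was higher in MC, with a log2 difference, MC over EC, of 1.98 (edgeR adjusted p = 0.00772). HPSC over EC gave no call in them.

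Other arterial and venous genes passed between populations. Of 11 other arterial genes, Cxcr4, Dll4, Gja4, Gja5, Notch4 and Sox17 were higher in HPSC than in MC (6 of 11, against 4.10% of all genes). The same genes other than Sox17 were lower in MC than in EC (5 of 11, against 2.29% of all genes). The Notch ligand Dll4 averaged 139 ± 149 CPM in HPSC, 1.15 ± 1.07 in MC and 66.2 ± 66.5 in EC (log2 difference, HPSC over MC, 6.23, edgeR adjusted p = 0.00115). Of 5 other venous genes, Aplnr, Emcn and Flt4 were higher in HPSC than in MC and lower in MC than in EC, against the same shares of all genes. Of the 10 endothelial markers, which include Emcn and the sorted Pecam1, 9 were higher in HPSC than in MC and 8 were lower in MC than in EC. The part of endothelial cells in these arterial and venous differences was not tested. The venous transcription factor Nr2f2, which mesenchyme also expresses, was lower in HPSC than in MC, at 121 ± 109 and 489 ± 144 CPM (log2 difference -2.30, edgeR adjusted p = 0.002). Efnb2 in MC was 36.9 to 171 CPM (median 55.8) and Ephb4 in MC was 62.1 to 123 CPM (median 77.2), levels within or near the HPSC and EC ranges of both genes.

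BRE-GFP positive and negative cells differed in 0 of the 60 guidance genes over the 9 pairs by edgeR, where 0.0554% of all tested genes passed. At an unadjusted p under 0.05 there were 13 members, against 5.30% of all genes, and DESeq2 called 7 (2.25% of all genes) and limma-voom 1 (0.450%). The lowest p-values belonged to Robo4, with a log2 difference, positive over negative, of 3.92 (SE 0.93, edgeR adjusted p = 0.314), Ephb4, given above, and Plxnd1, with 1.82 (SE 0.52, edgeR adjusted p = 0.551). Within HPSC 0 members passed, where 0.0370% of all genes did, with 14 at an unadjusted p under 0.05 (7.60% of all genes), 15 called by DESeq2 (5.72%) and 0 by limma-voom (0.314%). Within EC 0 passed, where 0.0123% of all genes did, with 10 unadjusted (4.29% of all genes), 5 by DESeq2 (2.50%) and 0 by limma-voom (0.0308%). Within MC 0 passed by edgeR, as for all genes (0%), with 0 unadjusted (0.431% of all genes), 0 by DESeq2 (0.0308%) and 0 by limma-voom (0%).

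The direction of the pairs was counted without a test. In HPSC the positive library was above the negative one in all 3 pairs for 17 of 60 members, against 14.0% of all genes, and below in all 3 for 2, against 10.8%. In MC it was above for 6 members, against 11.2% of all genes, and below for 11, against 16.2%. In EC it was above for 15, against 14.8%, and below for 5, against 8.30%. In all 6 pairs of HPSC and EC the positive library was above the negative one for 9 of 60 members, against 3.78% of all tested genes: Efna4, Epha2, Ephb4, Plxna2, Plxnd1, Robo1, Robo4, Sema6d and Sema7a. One member, Epha4, was below in all 6, against 1.75% of all genes. Counting HPSC and EC together was chosen after the values had been seen. Without the pair of cyclopamine HPSC, which holds the shallowest library, 12 members were above in the other 5 pairs, against 5.95% of all genes. The pair of cyclopamine EC, whose negative library had only 11006 symbols with a count, stayed in both counts. Over all 9 pairs Plxna2 and Robo4 were above, against 0.672% of all genes.

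Robo4 had 321 against 0 CPM in BRE-GFP positive and negative fresh HPSC, 338 against 59.8 in explant HPSC and 159 against 14 in cyclopamine HPSC. In EC it had 330.2 against 8.65, 169 against 67.7 and 64.3 against 0.520 CPM in fresh, explant and cyclopamine cells. In MC no library was above 2.43 CPM. Robo1, a Slit receptor found in many tissues, had 121 against 23.2, 96.3 against 8.42 and 100.3 against 3.77 CPM in HPSC and 70.5 against 24.4, 69.3 against 56.5 and 75.3 against 0.130 CPM in EC. Like Ephb4, Robo1 showed no overlap between the 6 positive and the 6 negative libraries, against 0.690% of all genes. The cyclopamine negative EC values of Robo4 and Robo1 rest on 4 counts and 1 count, in the library with 11006 symbols.

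Plxnd1 had 593 against 9.78, 412 against 63.3 and 192 against 189 CPM in positive and negative HPSC and 558 against 54.6, 158 against 71.1 and 88.4 against 39 in EC, with the widest gap in fresh HPSC and almost none in cyclopamine HPSC. Sema6d, a ligand of plexin-A1, had 113 against 2.62, 192 against 18 and 103 against 68.3 CPM in HPSC and 175 against 35.4, 122 against 41.9 and 33.3 against 2.08 in EC. Epha2, the receptor of Efna1, had 0.359 against 0, 59 against 11.2 and 85.7 against 0.377 CPM in HPSC, so it was near 0 in fresh HPSC, and 48 against 4.49, 34.3 against 3.02 and 51.6 against 0 in EC. All 3 positive EC libraries lay above all 3 negative ones for 8 of the 60 members, among them Epha2, Efnb2 and Plxnd1, and below for 1, Sema4b. The share of all genes in this order is not given here, so these counts are no result about the members. This order of 3 against 3 was not tested.

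Efna1 and Unc5b followed in 5 of the 6 pairs. Efna1 had 509 against 12.7, 849.8 against 58.2 and 315 against 179.5 CPM in HPSC and 611 against 47.7, 885 against 169 and 200.5 against 225 in EC, and in HPSC a log2 difference, positive over negative, of 3.43 (SE 0.91, edgeR adjusted p = 0.309). Unc5b had 89 against 19.5, 511 against 36.2 and 273 against 149 CPM in HPSC and 208 against 29.3, 469 against 87.5 and 106 against 125 in EC. For both, cyclopamine EC was the pair that ran the other way. Plxna4, a plexin of Sema3a complexes, had 33.1 against 0.291, 7.21 against 0.556 and 28.4 against 0.377 CPM in HPSC. It gave the lowest p of the members in HPSC, with a log2 difference of 5.49 (SE 1.26, edgeR adjusted p = 0.221). In EC the positive and negative values were 49.3 against 31.2, 21 against 19.7 and 11.8 against 18.1. The 3 of lowest p in HPSC were Plxna4, Ephb4 and Efna1, and in EC they were Ephb4, Efnb2 and Sema6d.

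Epha4 ran against these, with 3.47 against 29.7, 20.5 against 23.6 and 10.02 against 124 CPM in positive and negative HPSC, a log2 difference of -2.38 (SE 0.77, edgeR adjusted p = 0.444), and 32.3 against 35, 37.9 against 141 and 41.2 against 61.5 in EC. In MC the 3 of lowest p were Robo4 (2.54), Efna5 (-0.75) and Sema3a (-1.06, log2 differences), all with an edgeR adjusted p of 1.

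**Figure D4:**
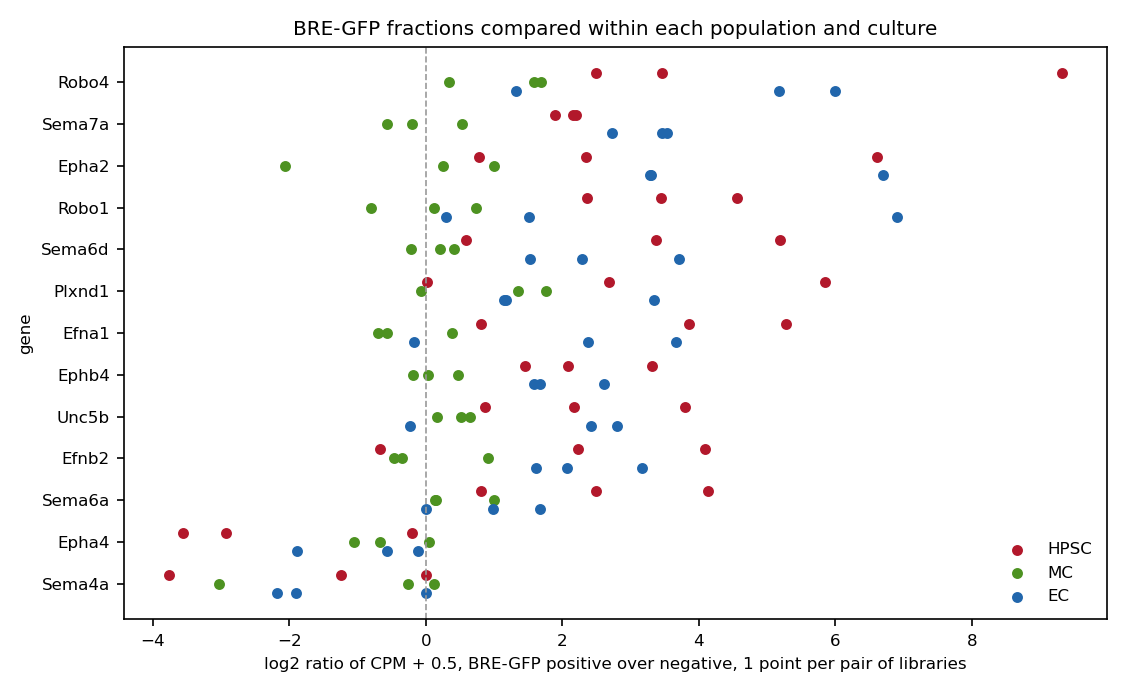
Log2 ratio of CPM + 0.5, BRE-GFP positive over negative, for 13 guidance genes. Each point is 1 pair of libraries of the same population and culture. The 13 are the members with an unadjusted edgeR p under 0.05 between fractions over all populations. That test used the pairs plotted here. Points leaning to the same side of 0 thus follow in part from this choice and are no separate evidence. HPSC and EC points of Robo4, Sema7a, Epha2, Robo1, Sema6d, Plxnd1 and Ephb4 all lie above 0 and MC points of Ephb4 and Sema6d lie within 0.5 of 0, while HPSC and EC points of Epha4 lie below 0.

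The endothelial marker sum also differed between the fractions. It was 1521 to 7583 CPM in the positive and 335 to 1496 CPM in the negative libraries of HPSC and EC, with no overlap, and 72.6 to 205 CPM in positive and 67.3 to 75.4 CPM in negative MC. The macrophage marker sum was 563 to 753 CPM in positive and 1444 to 3869.7 CPM in negative EC, and 229 to 3292 CPM in positive and 1349 to 1745 CPM in negative HPSC. By edgeR 0 of these 10 endothelial and 0 of 6 macrophage markers passed between fractions. The neural crest and neuron sum was 166 to 201 CPM in positive and 37.3 to 45.3 CPM in negative EC. In HPSC the sum of 6 erythroid markers was 1834 to 7965 CPM in positive and 8560.4 to 15040.2 CPM in negative libraries, and that of 7 urogenital epithelium markers 27.3 to 54.4 and 62.9 to 137 CPM, both without overlap. In MC the erythroid sum was 496 to 27863 CPM in positive and 2510 to 27171 CPM in negative libraries. Germ cell markers, 4 genes, summed to 0 to 107 CPM in the positive and 81 to 749 CPM in the negative libraries of HPSC and EC. The part of these cell types in the members' differences between fractions was not tested.

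**Figure D5:**
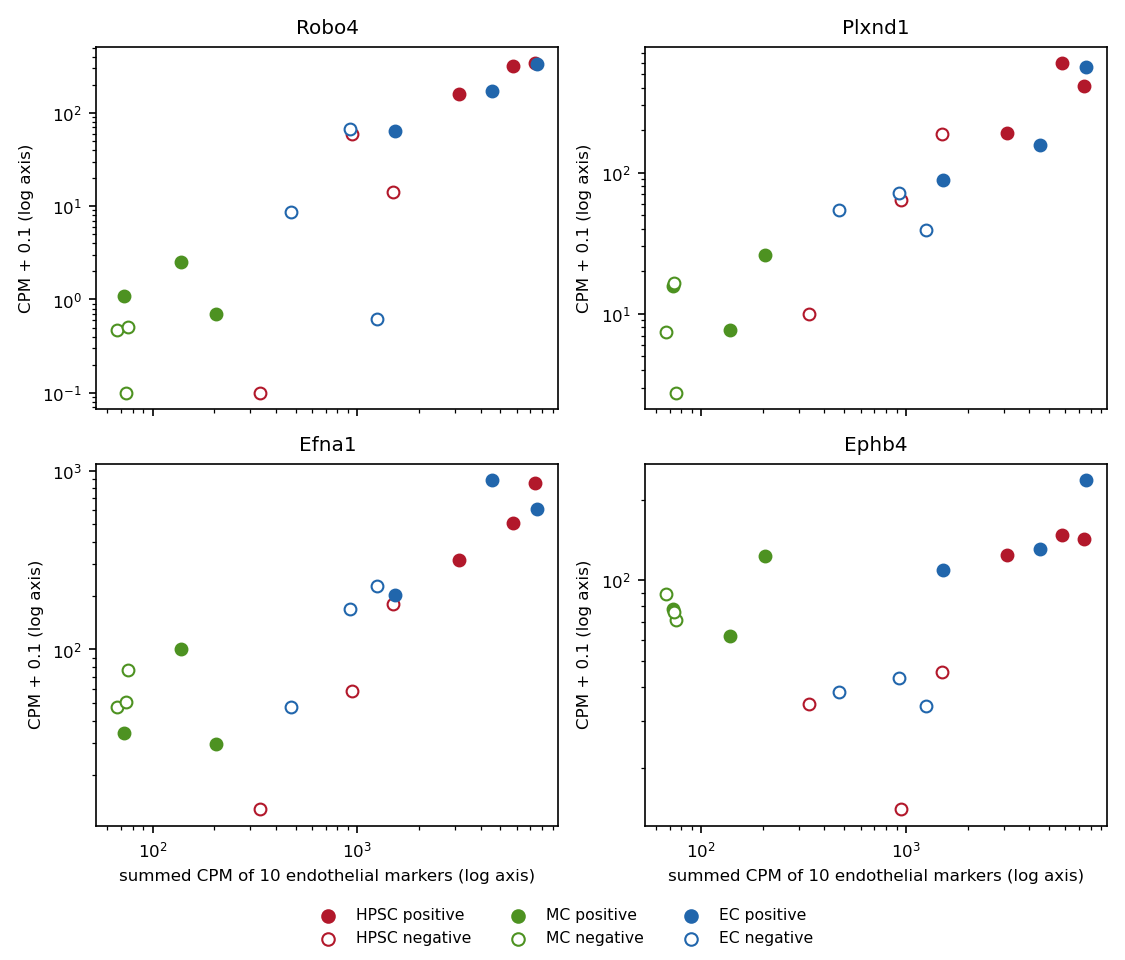
CPM + 0.1 of Robo4, Plxnd1, Efna1 and Ephb4 against the summed CPM of 10 endothelial markers, on log axes, with 1 point for each of the 18 libraries. BRE-GFP positive HPSC and EC libraries (filled red and blue) lie to the right of the negative ones, and MC libraries (green) lie at the left with Robo4 at no more than 2.43 CPM but Ephb4 at 62.1 to 123 CPM.

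Explant culture, set against fresh cells, changed 0 of the 60 members by edgeR (0.136% of all genes passed), with 5 at an unadjusted p under 0.05 (8.58% of all genes), 0 by DESeq2 (2.86%) and 0 by limma-voom (1.02%). The lowest p-values were those of Slit2, with a log2 difference, explant over fresh, of -1.60 (SE 0.70, edgeR adjusted p = 0.517), Plxnb2, with -0.91 (SE 0.41, edgeR adjusted p = 0.534), and Efna1, with 1.11 (SE 0.50, edgeR adjusted p = 0.546). Efna1 was above fresh in all 6 explant pairs, with explant positive HPSC at 849.8 CPM against 509 in fresh ones and explant positive EC at 885 against 611. Plxna3 and Robo3 were too, so 3 of 60 members were, against 5.72% of all genes. Robo3 passed the low-count filter only with its explant libraries, which favoured its place in this count. Efnb2 and Ephb4 gave log2 differences, explant over fresh, of -0.23 (0.979) and -0.53 (0.728), with edgeR adjusted p in parentheses.

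Cyclopamine changed 0 of the 60 members against the explant without it (0% of all genes passed by edgeR), with 5 members at an unadjusted p under 0.05 (8.13% of all genes), 0 by DESeq2 (1.06%) and 0 by limma-voom (0.265%). The lowest p-values were those of Epha10, with a log2 difference, cyclopamine over explant, of -4.76 (SE 1.74, edgeR adjusted p = 0.435), Robo4, with -2.41 (SE 0.97, edgeR adjusted p = 0.494), and Sema6c, with -3.81 (SE 1.56, edgeR adjusted p = 0.512); Epha10 and Sema6c were at most 3.41 and 12.8 CPM in any library. Epha10 passed the low-count filter only through explant libraries, at 3.41 and 1.70 CPM in positive and negative MC and 1.55 in positive EC. The filter thus favoured a fall with cyclopamine, so the Epha10 estimate is no evidence of an effect. Sema6c also needed its explant libraries to pass the filter and was at most 0.525 CPM in any cyclopamine library. The same limit holds for its estimate. Robo4 was below the explant in all 6 cyclopamine pairs, as were Epha1 and Epha6, 3 of 60 members against 4.66% of all genes. Epha6 too passed the filter only with its explant libraries, which favoured its place in this count. In positive cells Robo4 had 159 CPM in cyclopamine HPSC against 338 in explant HPSC, and 64.3 CPM in cyclopamine EC against 169 in explant EC. The endothelial marker sum in these positive cells was 3132 against 7377 CPM in HPSC and 1521 against 4544 in EC. In negative cells it ran the other way, at 1496 against 946 CPM in HPSC and 1248 against 923 in EC. The part of endothelial cells in the Robo4 difference was not tested. Efnb2 and Ephb4 gave log2 differences, cyclopamine over explant, of -0.04 (0.999) and 0.20 (0.996), with edgeR adjusted p in parentheses.

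Whether these effects differed between HPSC, MC and EC was tested directly, and 0 members passed for the BRE-GFP effect, the explant effect or the cyclopamine effect by edgeR, as for all genes (0%). At an unadjusted p under 0.05 there were 4, 3 and 4 members in this order, against 2.27%, 0.998% and 1.56% of all genes, DESeq2 called 1, 0 and 2 (0.308%, 0.111% and 0.388% of all genes), and limma-voom 0 each (0%). The lowest p-values were those of Plxna4, Efna1 and Ephb4 for the BRE-GFP effect, Epha2, Efna5 and Efnb3 for the explant effect, and Sema3a, Efnb3 and Plxnb1 for the cyclopamine effect, all with an edgeR adjusted p of 1. Sema3a, a secreted axon repellent, had 1.64 and 0.754 CPM in cyclopamine HPSC (positive, negative), against 22.6 and 21.3 in explant HPSC, and 79.8 and 263 CPM in cyclopamine EC, against 34.2 and 49.6 in explant EC. The larger BRE-GFP differences of HPSC and EC than of MC are therefore given as values and are not shown to differ between populations.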

How the data were processed

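RNA libraries were made with a SMARTer protocol after mirVana extraction, per the labels' protocols. Each deposited table holds raw counts of reads per gene symbol for 1 library, and TopHat, Cufflinks, HTSeq and the build mm10 come from the submitters' processing notes. Their versions, the annotation and the strand setting were not stated in any source used, so overlapping and antisense genes cannot be separated. Lines that name no gene stayed out of library sizes; the share of ambiguous reads was 0.479 to 0.935%. Depth is given in the text, and bounds cover counting error only.

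All 18 libraries entered each fit of edgeR 4.0.16 (R 4.3.3), a quasi-likelihood test on TMM-scaled counts. It covered the 16231 symbols with at least 0.796 CPM, which is 10 counts at the median depth, in at least 3 libraries, and p-values were adjusted over all of them by Benjamini and Hochberg (threshold 0.05). Populations and cultures were compared within 6 blocks and BRE-GFP fractions within 9 pairs; effects within populations and their differences came from models with those terms. With 1 library per combination, p-values measure the spread between matched libraries, and residual degrees of freedom were 6 to 10. Each SE is the absolute log2 difference over the square root of its F statistic, and not a standard error read from the fit. CPM use library totals over the tested genes times the TMM factor; the fold bound of Sema4f uses plain totals. DESeq2 1.42.0, limma-voom (limma 3.58.1), RLE scaling, no filter, an additive model, the no-feature share as a covariate and leaving out each library were the alternatives.

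The genes, partner lists and markers were chosen with earlier results of these data known. Named members are Efnb2, Ephb4, those with an adjusted p under 0.05, the 3 of highest mean CPM per kb in each family, and the 3 of lowest p where none passed; others, named as parts of a count by direction or overlap, were named after their values were seen. Gene positions and exon lengths are from GENCODE M21 (GRCm38), which matched all 62 members.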

Additional observations from a re-analysis of the deposited data

Results flagged for a closer look

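In 10 of 51 groups of 6 libraries (1 gene in 1 population, over Efnb2, Ephb4 and the 15 called members), the highest library stood apart from the rest. Its gap over the range exceeded Dixon's critical value. For 6 draws from a single normal distribution about 1 in 20 groups would do so. The 6 libraries of a population differ in culture and fraction, so that rate does not apply and no excess over chance is claimed. Fresh BRE-GFP positive MC stood apart for Efnb3, at 146 CPM with the next at 35, and for Ephb3, at 83.3 with the next at 29.1. Explant negative EC stood apart for Epha4 at 141 CPM and for Sema5a at 292 CPM. Cyclopamine negative EC did so for Epha7 at 279 CPM and for Slit2 at 125 CPM, and fresh positive EC for Plxnd1 at 558 CPM, with the next at 158. Among HPSC, Epha4 reached 124 CPM in cyclopamine negative, Ephb3 30.2 CPM in explant negative and Robo2 24.1 CPM in fresh negative cells, against at most 29.7, 0.359 and 8.95 CPM in the other HPSC libraries.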

How the results depend on the processing

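Counts of called members moved most with the tool; the shares of all genes called by the same tools stand in the text. DESeq2 called 6 for HPSC over EC, 6 for MC over EC, 25 for HPSC over MC, 7 between BRE-GFP fractions over all pairs, 5 in EC, 15 in HPSC, 1 for the BRE-GFP effect between populations and 2 for the cyclopamine effect between populations. Limma-voom called 2 for HPSC over EC, 8 for MC over EC, 27 for HPSC over MC and 1 between fractions. The no-feature share as a covariate gave 0 for HPSC over EC and 4 for HPSC over MC, and dropping the low-count filter gave 1 between fractions in HPSC (Efna1). The cause was not tested. Leaving out each library gave 0 to 1 calls for HPSC over EC and 7 to 16 for HPSC over MC, fewest without cyclopamine positive HPSC. Without it the calls of Efnb3, Epha5, Epha7, Ephb3, Plxna3, Sema4f, Sema5a and Slit2 ended. For the covariate, the dropped filter and the fits leaving out a library, the shares of all genes called are not given. Whether those changes are particular to the members cannot be read from the counts.

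Signs of uncalled differences of Efnb2 and Ephb4 turned in places. By limma-voom Ephb4 gave -0.27 for MC over EC and 0.015 for HPSC over MC, and Efnb2 0.071 for explant over fresh. Cyclopamine over explant for Efnb2 turned to 1.71 with the covariate and 0.0701 in the additive model, and its BRE-GFP difference in MC to -0.013 without the filter and -0.14 with the covariate. Leaving out each library gave Efnb2 -0.18 to 0.75 for HPSC over EC, -0.57 to 0.14 for MC over EC, -0.31 to 0.95 for HPSC over MC, -0.50 to 0.19 for explant over fresh, -0.79 to 0.35 for cyclopamine over explant and -0.44 to 0.28 between fractions in MC. Ephb4 gave -0.45 to 0.033, -0.077 to 0.43, -0.66 to -0.13, -0.69 to -0.37, -0.0090 to 0.37 and -0.11 to 0.25 in the same order. Called differences of members kept their direction in every fit run. Libraries were matched by population, culture and fraction in every model; the labels give no replicate numbers to use as a further block. Depth and 1 library per combination limit what can be seen at low levels.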
